A study of Mus musculus with 8 samples.

Results

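Genes of the DNA replication machinery were followed in organoids of the mouse small intestine (cultured epithelium that forms crypt-like buds) on 8 Agilent arrays. The set comprised 45 genes, chosen by name: the subunits that mark origins, load and activate the replicative helicase, synthesise DNA, join the new strands, supply deoxynucleotides and protect the fork. All 45 were found among the 28146 gene names on the array (6 under an older symbol, Orc1l to Orc6l), and all 45 were among the 19166 genes with a probe well above background in either colour on at least 2 arrays. The 45 genes are read by 65 probes, and 15 genes have more than 1 probe.

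Each array carried an organoid line's own RNA in one colour and a control in the other. In experiment 2, Tcf7l2 null organoids with induced Ascl2 (called the combined organoids below), Tcf7l2 null organoids and organoids with induced Ascl2 alone (Ascl2 OE) had 1 array each, all against organoids transduced with dsGFP, whose GFP is also induced by tamoxifen; the 3 arrays share that control and a slide. In experiment 3, Ascl2 null organoids had 1 array against VillinCreERT2 organoids. In experiment 1, Ascl2 OE organoids, with Ascl2 driven by a CMV promoter and RNA taken after 24 h, had 2 arrays with swapped dyes against VillinCreERT2 organoids. Every culture, controls included, was exposed to 4OH-tamoxifen for 16 h. This ligand activates the CreERT2 recombinase, which here switched on Ascl2 or GFP or deleted Tcf7l2 or Ascl2. The Villin promoter drives CreERT2 in intestinal epithelium, so in the VillinCreERT2 lines deletion is limited to those cells. A self-self array in each of experiments 2 and 3 carried one control RNA in both colours and shows the technical spread. For the control of experiment 3 the genotype field gives VillinCreERT2 while the description gives Ascl2loxp/loxp. Nothing in the labels ties the replicates to separate cultures, and p-values therefore cover only the spread between arrays, which may be technical.

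Ascl2 is a transcription factor of crypt base stem cells, and Tcf7l2 carries beta-catenin to DNA in Wnt signalling. No array labelled Ascl2 OE was clearly high in Ascl2, and none labelled Tcf7l2 null was 2-fold lower in Tcf7l2. Ascl2 was lower on the Ascl2 null array than on its self-self array. It was also below 0 on every experiment 2 array except the self-self one. The single Ascl2 probe was -0.93 in the combined organoids, -0.72 and -0.57 on the experiment 2 arrays labelled Ascl2 OE and Tcf7l2 null, and -1.07 on the Ascl2 null array (all values are log2 of own RNA over control), with -0.31 and 0.12 in experiment 1 against 0.01 and -0.26 on the dsGFP and VillinCreERT2 self-self arrays. Tcf7l2 lay between -0.25 and 0.13 on all 8 arrays. Which parts of Ascl2 the construct carries and which parts of both genes were deleted is not given here. Conditions are therefore named by their labels, and each direction rests on them. A difference in sex or animal of origin between own and control organoids was not tested. Of all genes, Rps4y2 was lowest on both experiment 1 arrays (-4.34 and -3.79) and highest on the Tcf7l2 null array (2.94). The Y-linked gene Eif2s3y was lowest of all genes on the Ascl2 null array (-3.71). Among 8 epithelial markers all were well above background on every array, while 2 of 6 measured mesenchymal and 4 of 7 immune markers were. The collagens Col1a1 and Col3a1 and the proteoglycan Dcn were well above background on 4, 3 and 3 of the 8 arrays.

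Before a cell divides, the origin recognition complex, Cdc6 and Cdt1 load the ring-shaped MCM helicase onto DNA in G1 phase. At the start of S phase Cdc45 and the GINS complex activate the helicase, and primase, the DNA polymerases, the sliding clamp Pcna and the ligase Lig1 copy and seal the strands. Many of these genes are transcribed late in G1 by E2F factors, which the Rb protein restrains until cyclin-dependent kinases inactivate it. In the intestine this programme runs in the dividing cells of the crypt and is low in differentiated villus cells.

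RefSeq's promoter table (GRCm38.p6; 250 bases before to 50 bases after each start) held 37 of the 45 genes. An E2F-type octamer, TTTCCCGC, TTTCGCGC, TTTGGCGC or TTTGCCGC on either strand, occurred in 15 of these 37 genes (40.5%), against 704 of 27025 genes in the whole table (2.6%). By promoter entry the shares were 32.6% of 46 and 2.26% of 32851. The CCAAT box, searched on both strands, occurred in 64.9% of the 37 and in 41.1% of all genes. The promoters below belong to the 4 genes with an octamer that had the lowest values in the combined organoids, and they are shown because these genes carry the largest differences described next. Capitals mark the octamers, which may overlap; all are written 5′ to 3′ along the gene.
Mcm7 (chr5:138171834-138172133, minus strand): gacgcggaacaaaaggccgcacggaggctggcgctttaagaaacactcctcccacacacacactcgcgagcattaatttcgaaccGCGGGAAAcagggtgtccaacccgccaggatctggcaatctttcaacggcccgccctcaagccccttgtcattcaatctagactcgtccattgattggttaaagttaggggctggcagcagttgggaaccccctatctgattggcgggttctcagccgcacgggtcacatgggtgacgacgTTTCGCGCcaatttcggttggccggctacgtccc
Uhrf1 (chr17:56304063-56304362, plus strand): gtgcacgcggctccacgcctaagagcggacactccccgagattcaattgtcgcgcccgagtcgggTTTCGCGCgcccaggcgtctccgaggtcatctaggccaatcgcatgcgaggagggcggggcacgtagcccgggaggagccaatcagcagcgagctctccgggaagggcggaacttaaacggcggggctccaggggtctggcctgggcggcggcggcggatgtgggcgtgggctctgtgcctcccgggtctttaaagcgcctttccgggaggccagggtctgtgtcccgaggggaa
Mcm6 (chr1:128359656-128359955, minus strand): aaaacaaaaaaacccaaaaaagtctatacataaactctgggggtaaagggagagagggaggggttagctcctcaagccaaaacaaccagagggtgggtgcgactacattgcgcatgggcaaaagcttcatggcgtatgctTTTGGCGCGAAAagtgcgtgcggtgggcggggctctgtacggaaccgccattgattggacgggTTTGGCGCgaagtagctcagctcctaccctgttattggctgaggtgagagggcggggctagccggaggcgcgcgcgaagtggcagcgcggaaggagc
Mcm3 (chr1:20820263-20820562, minus strand): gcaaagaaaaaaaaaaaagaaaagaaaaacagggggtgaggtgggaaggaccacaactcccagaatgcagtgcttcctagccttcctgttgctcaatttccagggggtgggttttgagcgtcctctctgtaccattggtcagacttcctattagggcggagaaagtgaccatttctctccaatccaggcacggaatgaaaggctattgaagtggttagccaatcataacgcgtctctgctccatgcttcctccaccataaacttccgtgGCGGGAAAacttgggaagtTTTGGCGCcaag

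The Mcm7 octamers begin 165 bases before and 16 bases after the annotated start. The single Uhrf1 octamer begins 185 bases before it. In Mcm6 a pair of octamers overlap, beginning 110 and 106 bases before the start, and another begins 47 bases before it. In Mcm3 both lie after the start, at 19 and 38 bases. These matches are descriptions of the sequence and not tests of E2F binding. In the combined organoids 8 of 15 genes with an octamer and 9 of 21 measured genes without one were at least 2-fold lower, with medians of -1.16 and -0.90.

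The replication genes were low as a group in the combined organoids. Their median was -0.99 over 44 measured genes, a 1.98-fold lower level than in the dsGFP control, against a median of 0.00 over all genes. Of the 44, 22 were at least 2-fold lower and none was 2-fold higher, where 1.73% of all genes were at least 2-fold lower and 0.993% reached 2-fold higher. Values were below 0 for 42 of 44, against 49.2% of all genes, and the exceptions were Gins4 and Orc3. On that slide's dsGFP self-self array the median was -0.00, 23 of 45 were below 0 and no gene reached 2-fold. The condition has 1 array, so there is no replicate check and no p-value. In these bulk samples fewer cells of a type and less RNA per cell cannot be told apart.

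**Figure D1:**
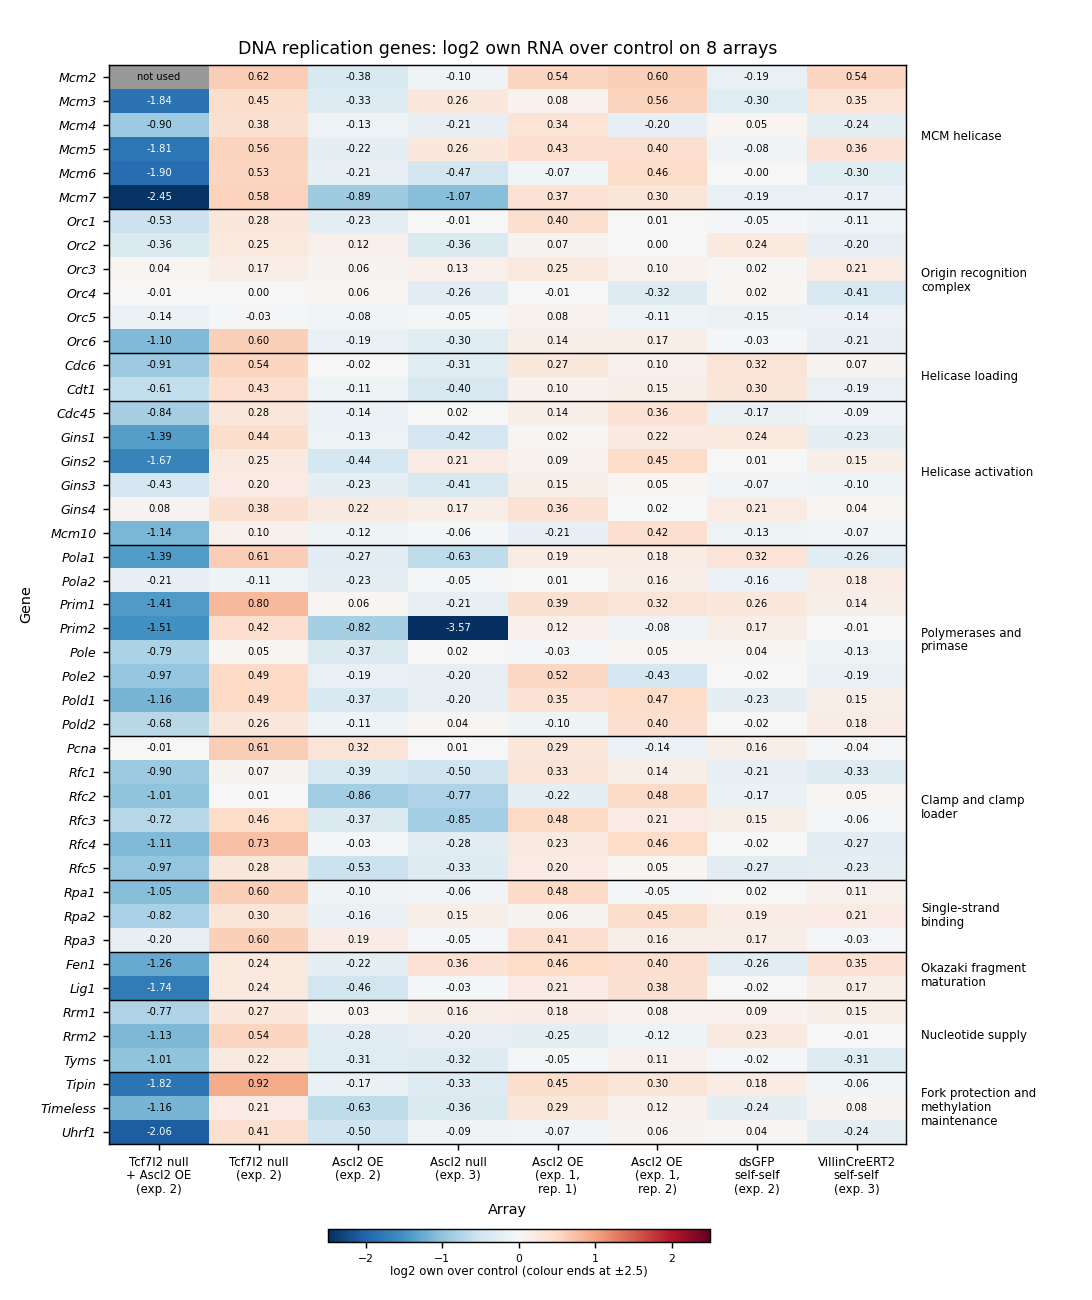
Log2 of own RNA over control for each of the 45 genes (rows, by role) on each of the 8 arrays (columns); each cell prints 1 array's value and the colour ends at plus or minus 2.5. The first column is blue in nearly every row, from -2.45 for Mcm7 to 0.08 for Gins4; the grey cell is Mcm2, whose spot was not used there.

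The MCM ring, the core of the replicative helicase, had the lowest median of any role in the combined organoids, at -1.84 over 5 measured genes. The fork protection genes and Uhrf1 were close, with a median of -1.82. Mcm7 had -2.45 in the combined organoids, -0.89 with Ascl2 OE in experiment 2 and 0.58 in Tcf7l2 null organoids, against -0.19 on the dsGFP self-self array. That is 5.45-fold lower in the combined organoids, and ninth from the lowest of 19138 genes on that array (rank 9). Its spot (mm9 chromosome 5, 138605925 to 138605984) read 1529 in Cy5 (own RNA) and 7060.5 in Cy3 (control), over local backgrounds of 81 and 17, and neither colour was dim. Mcm7 was also -1.07 on the Ascl2 null array, against -0.17 on the VillinCreERT2 self-self array, and 0.37 and 0.30 on the experiment 1 arrays. It was thus lowest in the combined and Ascl2 null organoids and above 0 on 3 arrays.

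Mcm6 was -1.90 in the combined organoids, -0.21 with Ascl2 OE in experiment 2 and 0.53 in Tcf7l2 null organoids, against -0.00 on the dsGFP self-self array. Mcm3 was -1.84 in the combined organoids, -0.33 with Ascl2 OE and 0.45 in Tcf7l2 null, against -0.30 for the self-self array. Mcm5 was -1.81 in the combined organoids, -0.22 with Ascl2 OE and 0.56 in Tcf7l2 null, against -0.08. All 3 were lowest in the combined organoids and highest in Tcf7l2 null organoids among the experiment 2 arrays. On the Ascl2 null array Mcm6 was -0.47, against -0.30 for its self-self array, while Mcm3 and Mcm5 were both 0.26, against 0.35 and 0.36. In experiment 1 Mcm6 was -0.07 and 0.46, Mcm3 0.08 and 0.56, and Mcm5 0.43 and 0.40.

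Mcm4 averaged -0.90 in the combined organoids over 2 probes that disagreed. The probe to the reference transcript read -1.91, close to Mcm3, Mcm5 and Mcm6, whereas the other was never well above background and read 0.11. On the remaining arrays the gene value was -0.13 with Ascl2 OE in experiment 2, 0.38 in Tcf7l2 null, -0.21 in Ascl2 null, and 0.34 and -0.20 in experiment 1, against 0.05 and -0.24 on the dsGFP and VillinCreERT2 self-self arrays. Mcm2 has no value in the combined organoids because the scanner marked its spot as non-uniform. Elsewhere Mcm2 was -0.38 with Ascl2 OE in experiment 2, 0.62 in Tcf7l2 null organoids, -0.10 in Ascl2 null organoids, and 0.54 and 0.60 in experiment 1. It was also 0.54 on the VillinCreERT2 self-self array, the highest of the 45 genes on either self-self array, and -0.19 on the dsGFP one.

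The origin recognition complex, which marks origins and recruits the loading factors, differed less. In the combined organoids 1 of its 6 subunits, Orc6, was at least 2-fold lower, and the median was -0.25. Orc6 was -1.10 there, -0.19 with Ascl2 OE in experiment 2 and 0.60 in Tcf7l2 null organoids, against -0.03 on the dsGFP self-self array. It was -0.30 in Ascl2 null organoids, against -0.21 on the VillinCreERT2 self-self array, and 0.14 and 0.17 in experiment 1. Orc3 was the highest subunit in the combined organoids at 0.04, with 0.06 for Ascl2 OE in experiment 2 and 0.17 for Tcf7l2 null, against 0.02 on the dsGFP self-self array. On the Ascl2 null array Orc3 was 0.13, against 0.21 on the VillinCreERT2 self-self array, and it was 0.25 and 0.10 in experiment 1. Orc4 and Orc5 read -0.01 and -0.14 in the combined organoids, Orc2 -0.36 and Orc1, the subunit that is itself cell cycle regulated, -0.53.

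The loading factors were lower by less than 2-fold. Cdc6, the ATPase that recruits the helicase, was -0.91 in the combined organoids and -0.02 and 0.54 on the experiment 2 arrays of Ascl2 OE and Tcf7l2 null, against 0.32 on the dsGFP self-self array. Cdt1, its partner in loading, was -0.61 in the combined organoids, -0.11 with Ascl2 OE and 0.43 in Tcf7l2 null, against 0.30. Both genes sat above 0 on that self-self array, so the distance to it is larger than the value itself. Cdc6 and Cdt1 were -0.31 and -0.40 in Ascl2 null organoids, against 0.07 and -0.19 on the VillinCreERT2 self-self array. Experiment 1 gave 0.27 and 0.10 for Cdc6 and 0.10 and 0.15 for Cdt1.

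Among the helicase activators 3 of 6 were at least 2-fold lower in the combined organoids. Gins2 was -1.67 there, -0.44 with Ascl2 OE in experiment 2 and 0.25 in Tcf7l2 null organoids, against 0.01 on the dsGFP self-self array. Gins1, from 2 probes of -1.36 and -1.42, averaged -1.39, with -0.13 for Ascl2 OE and 0.44 for Tcf7l2 null, against 0.24 for the self-self array. The 4 GINS subunits form one complex, yet their values in the combined organoids ran from -1.67 for Gins2 through -0.43 for Gins3 to 0.08 for Gins4. Gins4 was 0.22 with Ascl2 OE in experiment 2 and 0.38 in Tcf7l2 null, against 0.21 on the dsGFP self-self array. Mcm10, which helps the helicase start unwinding, was -1.14, -0.12 with Ascl2 OE and 0.10 in Tcf7l2 null, against -0.13. Cdc45, which joins GINS on the helicase, was -0.84 in the combined organoids. Gins2, Gins1, Gins4 and Mcm10 were 0.21, -0.42, 0.17 and -0.06 in Ascl2 null organoids, against 0.15, -0.23, 0.04 and -0.07 on the VillinCreERT2 self-self array, and none of these lay more than 0.2 from its self-self value. In experiment 1 Gins2 was 0.09 and 0.45, Gins1 0.02 and 0.22, Gins4 0.36 and 0.02, and Mcm10 -0.21 and 0.42, so the replicates of Mcm10 had opposite signs.

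Of the 8 polymerase and primase genes 4 were at least 2-fold lower in the combined organoids and the median was -1.06. The primase subunits Prim1 and Prim2, which lay down RNA primers, were -1.41 and -1.51 there, 0.06 and -0.82 with Ascl2 OE in experiment 2 and 0.80 and 0.42 in Tcf7l2 null organoids, against 0.26 and 0.17 on the dsGFP self-self array. Their partner Pola1, the catalytic subunit of polymerase alpha, was -1.39 in the combined organoids, -0.27 with Ascl2 OE and 0.61 in Tcf7l2 null, against 0.32. Pold1, the catalytic subunit of polymerase delta, was -1.16 from 2 probes of -1.15 and -1.17, with -0.37 for Ascl2 OE and 0.49 for Tcf7l2 null, against -0.23. Pole, the catalytic subunit of polymerase epsilon, averaged -0.79, with -1.66 on its detected probe and 0.07 on a probe never well above background. Pole2 was -0.97, Pold2 -0.68 and Pola2, which has 1 detected probe of 3, was highest at -0.21. Pola2 was -0.23 with Ascl2 OE in experiment 2, -0.11 in Tcf7l2 null and -0.05 in Ascl2 null, against -0.16 and 0.18 on the dsGFP and VillinCreERT2 self-self arrays, and 0.01 and 0.16 in experiment 1. On the Ascl2 null array Prim1, Pola1 and Pold1 were -0.21, -0.63 and -0.20, against 0.14, -0.26 and 0.15 on the VillinCreERT2 self-self array, each lower than its self-self value. Experiment 1 gave 0.39 and 0.32 for Prim1, 0.19 and 0.18 for Pola1, and 0.35 and 0.47 for Pold1, all above 0.

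The sliding clamp stood apart from its loader. Pcna, which tethers polymerases to DNA, was -0.01 in the combined organoids, 0.32 with Ascl2 OE in experiment 2 and 0.61 in Tcf7l2 null organoids, against 0.16 on the dsGFP self-self array. The 5 subunits of replication factor C, which opens and closes the clamp, lay between -1.11 for Rfc4 and -0.72 for Rfc3 in the combined organoids, with Rfc5 at -0.97 and Rfc1 at -0.90. Rfc4 was -0.03 with Ascl2 OE in experiment 2 and 0.73 in Tcf7l2 null, while Rfc2 was -1.01 in the combined organoids and already -0.86 with Ascl2 OE, with 0.01 in Tcf7l2 null. Their dsGFP self-self values were -0.02 and -0.17. Rfc2 was therefore almost as low with Ascl2 OE alone as in the combined organoids, and Rfc4 was not. In Ascl2 null organoids Pcna, Rfc4 and Rfc2 were 0.01, -0.28 and -0.77, against -0.04, -0.27 and 0.05 on the VillinCreERT2 self-self array. Experiment 1 gave 0.29 and -0.14 for Pcna, 0.23 and 0.46 for Rfc4, and -0.22 and 0.48 for Rfc2, so Rfc4 alone of these 3 was above 0 on both replicates.

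The single-strand binding protein RPA, which coats unwound DNA, had Rpa1 at -1.05, Rpa2 at -0.82 and Rpa3 at -0.20 in the combined organoids, and 0.60, 0.30 and 0.60 in Tcf7l2 null organoids, against 0.02, 0.19 and 0.17 on the dsGFP self-self array. With Ascl2 OE in experiment 2 the 3 subunits were -0.10, -0.16 and 0.19. Lig1, which seals Okazaki fragments, was -1.74 in the combined organoids, -0.46 with Ascl2 OE in experiment 2 and 0.24 in Tcf7l2 null, against -0.02 on the dsGFP self-self array. Fen1, the flap nuclease that trims them, was -1.26 in the combined organoids, -0.22 with Ascl2 OE and 0.24 in Tcf7l2 null, against -0.26. Both genes of fragment maturation were thus more than 2-fold lower in the combined organoids. In Ascl2 null organoids Rpa1, Lig1 and Fen1 were -0.06, -0.03 and 0.36, against 0.11, 0.17 and 0.35 on the VillinCreERT2 self-self array. Experiment 1 gave 0.48 and -0.05 for Rpa1, 0.21 and 0.38 for Lig1, and 0.46 and 0.40 for Fen1. Rpa3, the highest RPA subunit in the combined organoids, was -0.05 in Ascl2 null organoids, against -0.03 on the VillinCreERT2 self-self array, and 0.41 and 0.16 in experiment 1.

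For nucleotide supply, Rrm2, the regulatory subunit of ribonucleotide reductase that peaks in S phase, was -1.13 in the combined organoids, -0.28 with Ascl2 OE in experiment 2 and 0.54 in Tcf7l2 null, against 0.23 on the dsGFP self-self array. Tyms, which makes thymidylate, averaged -1.01 over 3 probes, of which those to the reference transcript read -1.42 and -1.39 and the other -0.23; its gene value was -0.31 with Ascl2 OE and 0.22 in Tcf7l2 null, against -0.02. Rrm1 averaged -0.77, from -1.61 on its detected probe and 0.07 on one never well above background. Its gene value was 0.03 with Ascl2 OE in experiment 2, 0.27 in Tcf7l2 null and 0.16 in Ascl2 null, against 0.09 and 0.15 on the dsGFP and VillinCreERT2 self-self arrays, and 0.18 and 0.08 in experiment 1. Rrm2 and Tyms were -0.20 and -0.32 in Ascl2 null organoids, against -0.01 and -0.31 on the VillinCreERT2 self-self array. In experiment 1 Rrm2 was -0.25 and -0.12 and Tyms -0.05 and 0.11, and Rrm2 was among the few genes below 0 on both replicates. On the array of the combined organoids the mean over probes is therefore closer to 0 than the detected probe in 4 genes with undetected probes (Mcm4, Pole, Rrm1 and Pola2).

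The fork protection genes and Uhrf1 were all at least 2-fold lower in the combined organoids. Uhrf1, which binds hemimethylated DNA behind the fork and recruits the maintenance methyltransferase, was -2.06 there, -0.50 with Ascl2 OE in experiment 2 and 0.41 in Tcf7l2 null organoids, against 0.04 on the dsGFP self-self array. That is 4.17-fold lower in the combined organoids, from 2 probes of -1.96 and -2.15, and rank 22 from the lowest on the array. Uhrf1 was -0.09 in Ascl2 null organoids, against -0.24 on the VillinCreERT2 self-self array, and -0.07 and 0.06 in experiment 1. Tipin, which with Timeless keeps the stalled fork intact, was -1.82 in the combined organoids, -0.17 with Ascl2 OE and 0.92 in Tcf7l2 null, against 0.18 on the dsGFP self-self array. Timeless was -1.16 in the combined organoids, -0.63 with Ascl2 OE and 0.21 in Tcf7l2 null, against -0.24. Tipin had the highest value of the 45 genes in Tcf7l2 null organoids. Tipin and Timeless were -0.33 and -0.36 in Ascl2 null organoids, against -0.06 and 0.08 on the VillinCreERT2 self-self array, and experiment 1 gave 0.45 and 0.30 for Tipin and 0.29 and 0.12 for Timeless.

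The design pairs the combined organoids with each single alteration on the same slide and control, so the difference of 2 arrays cancels both. Set against Tcf7l2 null organoids, the combined organoids had a median difference of -1.27 over 44 genes, and all 44 were below 0, where 47.9% of all genes were. At least 2-fold lower were 31 of the 44, against 3.68% of all genes. The difference was -3.03 for Mcm7 (8.16-fold lower), -2.75 for Tipin, -2.47 for Uhrf1 and -2.43 for Mcm6, and it was smallest for Orc4 at -0.01. Set against Ascl2 OE organoids, the median difference was -0.74, with 43 of 44 below 0 against 49.5% of all genes and 14 at least 2-fold lower against 1.09%. There the lowest were Mcm6 at -1.69, Tipin at -1.65, Mcm5 at -1.59, Mcm7 at -1.56 and Uhrf1 at -1.56 (difference of log2 ratios), and Pola2 was above 0 at 0.01. Neither difference has a replicate check.

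**Figure D2:**
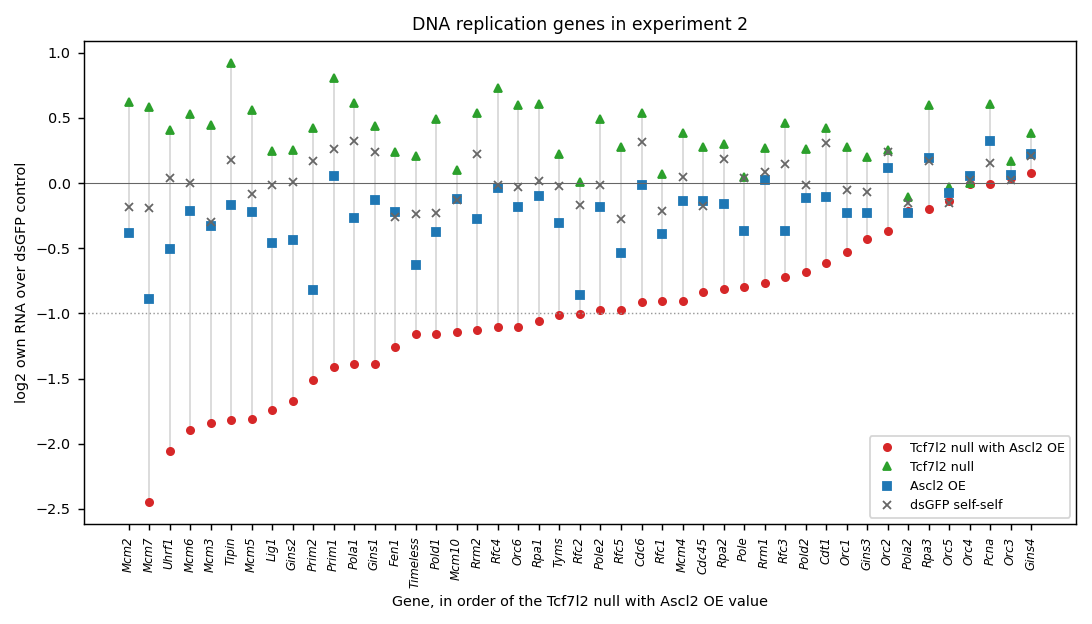
Log2 of own RNA over the dsGFP control in experiment 2, 1 array per symbol, with the 45 genes ordered by the value in the combined (Tcf7l2 null with Ascl2 OE) organoids; the dotted line is 2-fold lower and the grey bars span the 3 conditions. Circles of the combined organoids lie below the triangles of Tcf7l2 null organoids for all 44 genes that have both, and Mcm2 has no circle.

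In Tcf7l2 null organoids without induced Ascl2 the replication genes were slightly higher than in the dsGFP control. The median was 0.38 and 43 of 45 genes were above 0, against 50.3% of all genes; the exceptions were Pola2 at -0.11, whose detected probe read 0.01, and Orc5 at -0.03. With detected probes only, 44 genes were above 0. With each array centred on its median in place of the intensity curve, the genes' median was 0.79 in Tcf7l2 null organoids, against 0.33 on the dsGFP self-self array. None was 2-fold higher or lower, where 0.345% of all genes reached 2-fold higher and 0.48% reached 2-fold lower. Tipin at 0.92, Prim1 at 0.80 and Rfc4 at 0.73 were highest. For 44 of 45 genes the value exceeded that of the same gene on the dsGFP self-self array, and for 40 it exceeded both self-self values. The matching shares of all genes were not computed. With 1 array, no test was made.

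With Ascl2 OE alone in experiment 2 the genes were slightly lower than in the dsGFP control. The median was -0.21 and 37 of 45 were below 0, against 48.8% of all genes, with none at least 2-fold lower, where 0.747% of all genes were. The lowest were Mcm7 at -0.89, Rfc2 at -0.86, Prim2 at -0.82 and Timeless at -0.63. The highest were Pcna at 0.32, Gins4 at 0.22 and Rpa3 at 0.19. For 28 of 45 genes the value was below both self-self values, so a part of the set was not below the technical spread. The share of all genes below both was not computed. With median centring the genes' median was -0.047, against 0.33 on the dsGFP self-self array.

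In Ascl2 null organoids 2 replication genes, Prim2 and Mcm7, were at least 2-fold lower than in VillinCreERT2 organoids, and the set as a whole differed from the VillinCreERT2 self-self array by a median of -0.10. The median was -0.20 and 33 of 45 were below 0, against 49.4% of all genes; on that slide's VillinCreERT2 self-self array the median was -0.06 and 27 of 45 were below 0. With median centring the medians were -0.36 in Ascl2 null organoids and -0.16 on that self-self array. Those 2 of 45 compare with 1.26% of all genes at least 2-fold lower. Prim2 was -3.57 in Ascl2 null organoids, against -0.01 on the VillinCreERT2 self-self array, an 11.9-fold lower level and rank 2 from the lowest of 19145 genes. Its single probe (mm9 chromosome 1, 33510733 to 33510792) read 159 in Cy5 (own RNA) over a local background of 118, and 1388.5 in Cy3 (control) over 29. Its partner subunit Prim1 was -0.21 on the same array. Prim2 was 0.12 and -0.08 in experiment 1, so a low value was seen in the Ascl2 null, combined and experiment 2 Ascl2 OE organoids and not on the other arrays. Below those, Rfc3 was -0.85, Rfc2 -0.77 and Pola1 -0.63 in Ascl2 null organoids, against -0.06, 0.05 and -0.26 on the self-self array, while Fen1 at 0.36, Mcm3 and Mcm5 at 0.26 were highest, against self-self values of 0.35, 0.35 and 0.36.

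**Figure D3:**
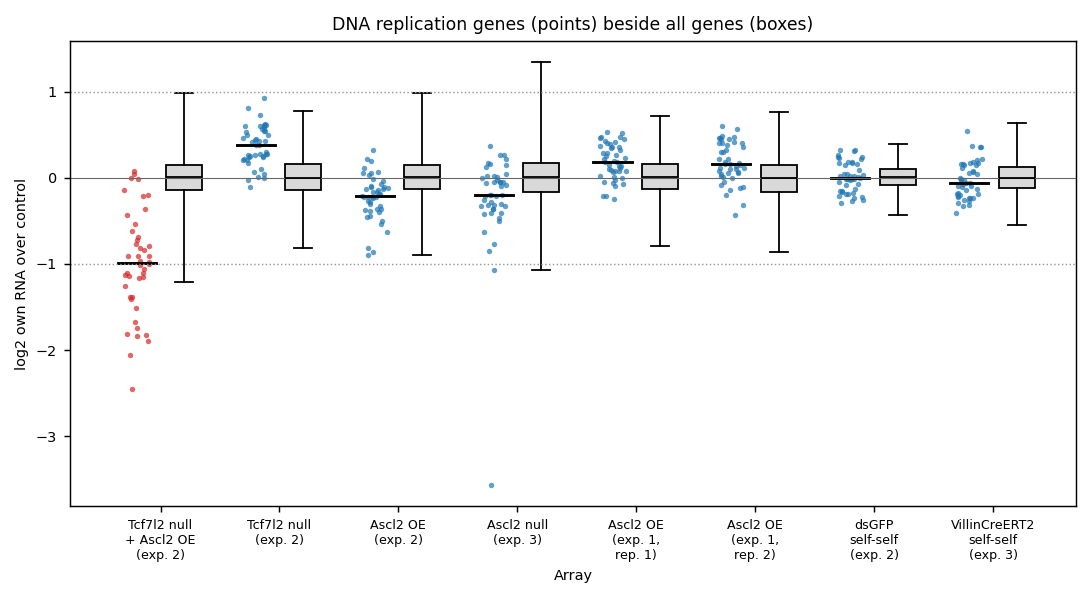
Log2 of own RNA over control on the 8 arrays: points are the replication genes (black bar, median), and boxes show all genes in the fit (median and quartiles; whiskers, first to 99th percentile). Points sit around a median of -0.99 in the combined organoids and of 0.38 in Tcf7l2 null organoids, and around -0.00 and -0.06 on the self-self arrays; the single point at the bottom is Prim2 in Ascl2 null organoids.

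Experiment 1 is the only condition with 2 arrays and is the only one tested. There the replication genes were slightly higher with Ascl2 OE than in VillinCreERT2 organoids, and no single gene passed. Replicate medians were 0.19 and 0.16, and 30 of 45 genes were above 0 on both replicates, against 28.0% of all genes. For 17 of 45 genes both replicates exceeded both self-self values, and the share of all genes was not computed. By limma with Benjamini-Hochberg adjustment over 19166 genes, 0 of 45 passed at 0.05, where 0.804% of all genes did (154 genes, a count that ran from 0 to 299 under the alternative settings). At an unadjusted p under 0.05, 12 of 45 were found, all higher, against 6.77% of all genes that were higher at that level. The lowest adjusted p belonged to Tipin, at 0.37 ± 0.10 (SE, n = 2 arrays, limma adjusted p = 0.174), followed by Pold1 at 0.41 ± 0.12 (0.194), Prim1 at 0.36 ± 0.10 (0.197) and Rfc3 at 0.35 ± 0.10 (0.201). Each SE rests on how 1 shared dye term (the bias between colours) fits the experiment 1 pair and the self-self arrays. It is therefore not the spread of the 2 replicates alone. Mcm2 had the highest estimate, 0.57 ± 0.19 (limma adjusted p = 0.236), and was also 0.54 on the VillinCreERT2 self-self array. Rrm2 was lowest at -0.18 ± 0.11 (limma adjusted p = 0.543). Without the intensity curve (each array centred on its median instead) the replicate medians were 0.91 and -0.24, so the shared direction of the replicates depends on that step. That centring can leave bias between colours, and the dyes were swapped between the replicates. With the dye term of the model the median was 0.30 there.

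The arrays labelled Ascl2 OE differed in sign between the 2 experiments. Above 0 on both arrays of experiment 1 and below 0 in experiment 2 were 24 of 45 genes, against 12.0% of all genes. Mcm7 differed most, with 0.37 and 0.30 in experiment 1 and -0.89 in experiment 2, followed by Mcm2 with 0.54 and 0.60 and -0.38, and Timeless with 0.29 and 0.12 and -0.63. The experiments differ in their control organoids and slide, an extraction time is given for experiment 1 alone, and these cannot be told apart. An exchange of labels within experiment 2 was not tested. The stem cell marker Lgr5 was 1.06 and 0.54 in experiment 1. In experiment 2 Lgr5 was 0.58 in Tcf7l2 null, -1.82 with Ascl2 OE and -2.02 in the combined organoids. Tuft cell marker medians were -0.24 and -0.13 in experiment 1, and 0.01, 1.03 and 1.26 on those experiment 2 arrays. Aqp4 differed, with 1.33 and 1.24 in experiment 1 and 1.65, 1.52 and -0.62 in experiment 2.

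**Figure D4:**
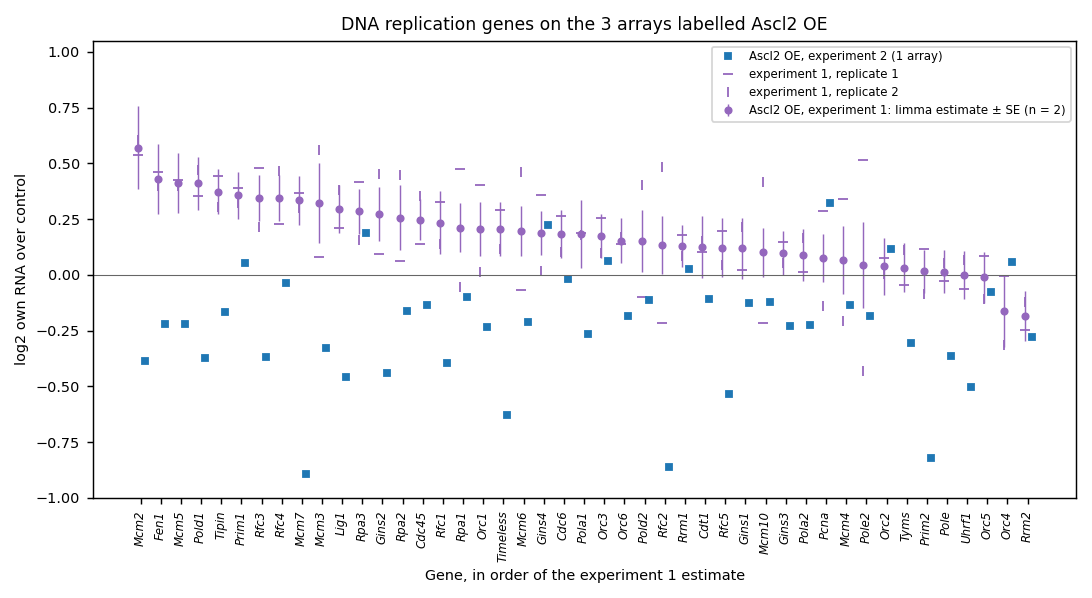
Log2 of own RNA over control on the arrays labelled Ascl2 OE, with the 45 genes ordered by the experiment 1 estimate. Circles with bars are limma estimates (n = 2 arrays) with the SE of the model, which also draws on the self-self arrays. Dashes and ticks are the 2 replicates, and squares the single array of experiment 2. Most circles are above 0 and most squares below it, and Mcm7 lies at 0.33 in experiment 1 and -0.89 in experiment 2.

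Neighbouring parts of the cell cycle programme were read from lists that do not overlap with the 45 genes. In the combined organoids 12 of 12 regulators of initiation were below 0 (median -0.64), with Fbxo5, an inhibitor of the anaphase-promoting complex, at -1.15, the helicase Recql4 at -1.03 and the origin-firing factor Topbp1 at -0.98; the licensing inhibitor Gmnn was -0.18. The highest of that list were Mcm9 at -0.02, Mcmbp at -0.13 and Dbf4 at -0.17. Of 30 genes for fork accessory and chromatin assembly factors 8 were at least 2-fold lower (median -0.64), led by Chaf1b at -1.98, Exo1 at -1.70 and Asf1b at -1.69. The maintenance methyltransferase Dnmt1, which Uhrf1 recruits, was -1.57 there and Top2a -0.49, while the polymerase subunits Pold4, Pole3 and Pole4 were highest at 0.67, 0.25 and 0.07. Of 16 further nucleotide genes 6 were at least 2-fold lower (median -0.86), with Tk1 at -1.43, Dut at -1.41 and Ctps at -1.35, while Samhd1, which degrades deoxynucleotides, was 0.33 and Dck -0.18.

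Of 25 mitosis genes 12 were at least 2-fold lower in the combined organoids and all 25 were below 0 (median -0.92), with Kif20a at -2.11, Mki67 at -1.76 and Prc1 at -1.56 lowest and Kif11, Cdk1 and Bub1 highest at -0.32, -0.44 and -0.44. The 30 E2F and G1/S regulators had a median of -0.33 and 4 were at least 2-fold lower. Ccnd2 at -1.76, Myc at -1.54 and Ccna2 at -1.41 were lowest, E2f1 was -0.60, Ccne1 -0.88 and Ccne2 -0.60, and Cdkn1c at 0.56, Mycn at 0.55 and Tfdp2 at 0.26 were highest. In Tcf7l2 null organoids all 25 mitosis genes were above 0 (median 0.47), and the E2F list had a median of 0.23. With Ascl2 OE in experiment 2 and in Ascl2 null organoids the replication medians of -0.21 and -0.20 stood beside mitosis medians of -0.05 and 0.02. None of these 5 lists had a gene that passed the limma test in experiment 1.

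**Figure D5:**
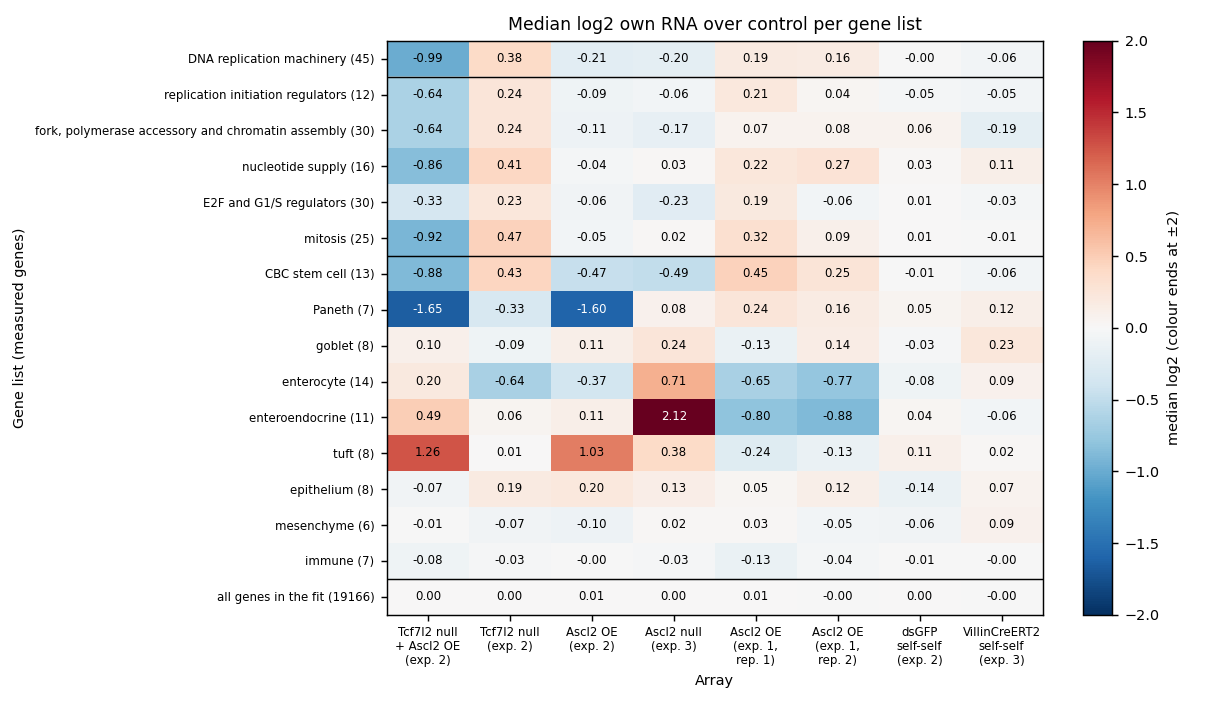
Median log2 of own RNA over control per gene list (rows, number of measured genes in brackets) on each of the 8 arrays (columns); the cell prints the median and the colour ends at plus or minus 2. In the combined organoids the replication, mitosis and stem cell rows read -0.99, -0.92 and -0.88, beside 1.26 for tuft cell markers and -1.65 for Paneth cell markers, and all self-self medians lie between -0.19 and 0.23.

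Markers of cell types also differed on these arrays. In the combined organoids 12 of 13 crypt base stem cell markers were below 0 (median -0.88; Olfm4 -4.83, Cdca7 -2.21 and Slc12a2 -2.18 lowest), as were 6 of 7 measured Paneth cell markers (median -1.65), while 8 of 8 tuft cell markers (median 1.26) and 10 of 11 enteroendocrine markers (median 0.49) were above 0. The lowest Paneth markers were Ang4 at -2.80 and Lyz1 at -2.07, and the highest enteroendocrine marker was Gip at 4.51. Enterocyte markers had a median of 0.20 and goblet cell markers 0.10. In Tcf7l2 null organoids the stem cell median was 0.43 and that of enterocyte markers -0.64. With Ascl2 OE in experiment 2 the stem cell, Paneth and tuft medians were -0.47, -1.60 and 1.03, and in Ascl2 null organoids the stem cell and enteroendocrine medians were -0.49 and 2.12. In experiment 1 stem cell medians were 0.45 and 0.25, where by limma at an adjusted p of 0.05 the stem cell markers Lgr5 (0.80) and Aqp4 (1.28) were higher and 5 of 14 enterocyte and 5 of 11 enteroendocrine markers lower. These marker calls are those of the main setting, where 0.804% of all genes passed. The count of all genes passing ran from 0 to 299 under the alternative settings. The part of the cell type markers in the replication gene values was not tested. Mesenchymal and immune markers had medians between -0.13 and 0.09 on all 8 arrays. Only 2 of 6 and 4 of 7 were well above background on every array, so these medians say little about such cells. The mesenchymal marker Pdgfrb was 0.59 in the combined organoids, 0.47 in Tcf7l2 null and 0.73 with Ascl2 OE in experiment 2, against 0.18 on the dsGFP self-self array. On those arrays 3, 5 and 5 of the 6 mesenchymal markers were below 0.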

How the data were processed

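RNA of mouse organoids was hybridised to 8 two-colour Agilent arrays on 3 slides, 1 per experiment. The deposited scanner files hold spot and local background intensity, made with Feature Extraction 10.5.1.1 per the file headers; their log10 ratio is Cy5 over Cy3 after that software's own correction, per the file headers. The value table deposited by the authors gives log2 ratios; how these were processed further is not stated in any source used here. Of 45018 spots, 1639 are controls; 50.1% to 61.1% were well above background in Cy3 and 53.8% to 67.4% in Cy5, and none was saturated.

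From the median intensities, background was corrected with normexp (offset 50) and ratios normalised by loess within each array (R 4.3.3, limma 3.58.1). Loess centres most genes on 0, so a shift of all genes cannot be seen. Spots the scanner marked as outliers were left out, and spots with a non-uniform local background were left out before the normexp fit; this last step was added after seeing that extreme backgrounds on replicate 2 of experiment 1 had shifted every spot. A gene is the mean of its probes, and a gene was kept with a probe well above background on 2 arrays. The limma model had a dye term and 1 effect per condition, was fitted to the 8 arrays together, and left 2 residual degrees of freedom. Tested on simulated data for Ascl2 OE in experiment 1 (19163 genes), it recovered 53 of 100 genes changed by 1 and 83 of 100 changed by 2 (log2), with 3 false calls. The simulated data assumed the same shared dye term. They held no changes as small as those of the replication genes, whose highest estimate was 0.57, so recovery of such changes is not known. Probes of experiments 2 and 3 were named from the experiment 1 files by probe. Coordinates of probes are those of the array's annotation, whose positions fit mm9; exons were not analysed here.

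All 45 genes are named by role, with full values for those at least 2-fold different on an array and for the highest and lowest of a role; from the cell cycle lists the 3 highest and 3 lowest genes in the combined organoids are named (fewer from the cell type marker lists, and some genes are not reported here), plus E2f1, Ccne1, Ccne2, Gmnn, Dnmt1, Mki67 and Top2a. Genes, lists and comparisons were chosen with earlier results of these data known. Alternatives were no background correction, median centring, the scanner's and the authors' ratios, the brightest probe, detected probes only, no filter, subtraction of the self-self array or dye term, 1 shared Ascl2 effect and leaving out each replicate.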

Additional observations from a re-analysis of the deposited data

Results flagged for a closer look

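The replication genes had opposite signs on the arrays labelled Ascl2 OE of the 2 experiments: the median was 0.19 and 0.16 on the replicates of experiment 1 and -0.21 on the array of experiment 2. Both arrays of one experiment lay on one side of 0 and the array of the other on the opposite side. The difference itself was not tested. With median centring the medians were 0.91 and -0.24 on the replicates, whose dyes were swapped, and -0.047 in experiment 2. That centring can leave bias between colours in single arrays, so their signs do not decide whether the split held there. With the dye term of the model the experiment 1 median was 0.30 under that centring. The dsGFP self-self array on the slide of experiment 2 had a median of 0.33. Per gene, 24 of 45 were above 0 on both arrays of experiment 1 and below 0 in experiment 2, against 12.0% of all genes.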

How the results depend on the processing

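No replication gene passed the limma test in experiment 1 under any alternative run, and no comparison's median changed sign, although with median centring that of replicate 2 of experiment 1 alone was -0.24. With median centring the medians were -0.84 in the combined organoids, 0.79 in Tcf7l2 null, -0.047 with Ascl2 OE in experiment 2, -0.36 in Ascl2 null and 0.30 in experiment 1; the differences from Tcf7l2 null and from Ascl2 OE were -1.44 and -0.79. That centring put the median of all genes at 0.31 and -0.17 on the experiment 1 replicates and at 0.10 on the Tcf7l2 null array, and the replication genes' median on the dsGFP self-self array at 0.33. With the scanner's ratio they were -1.18 in the combined organoids, -0.27 with Ascl2 OE in experiment 2 and -0.26 in Ascl2 null, with differences of -1.66 and -0.99. With the authors' deposited table they were -1.28, -0.29, -0.26 and, in experiment 1, 0.23, with differences of -1.74 and -1.02, and 24 genes at least 2-fold lower than with Ascl2 OE. With the brightest probe they were -1.10 in the combined organoids and 0.43 in Tcf7l2 null, with differences of -1.50 and -0.82; with detected probes only, -1.08, -1.46 and -0.78. Less the slide's self-self array, Tcf7l2 null gave 0.31 and Ascl2 null -0.10. Without background correction the difference from Ascl2 OE was -0.67. In experiment 1 the median was 0.10 with the non-uniform backgrounds kept (an alternative chosen after seeing the data) and 0.077 with 1 Ascl2 effect shared by 3 arrays. The count of all genes passing there was unstable: 154 as reported, 299 without the filter, 17 with the shared effect, 16 with the authors' table, 3 without background correction, 1 with median centring, and 0 with the scanner's ratio and with the non-uniform backgrounds kept; leaving out 1 replicate gave 1 to 2. Leaving out a replicate left the genes' median between 0.19 and 0.21, with the lone array assumed to vary like the others. Of 2989 recomputed single-gene values, 417 moved by more than the root mean square of the self-self values (0.195), and none that was at least 2-fold changed sign. A dye term per slide leaves no residual degrees of freedom and was not run. No paired analysis was possible because replicate numbers exist in experiment 1 alone. The number of arrays limits precision; the causes of these differences were not tested.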

Other observations

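Genes within 1 megabase of the Prim2 probe did not share its value in Ascl2 null organoids. Among 11 other gene names with a probe in that window on the array's annotation, values ran from -0.97 (Imp4) to 0.22 (Gm5415), against -3.57 for Prim2. On the VillinCreERT2 self-self array Imp4 was 0.42 and Gm5415 -0.11. The closest probe, that of Rab23, lay 285410 bases away. The nearest named neighbours were Rab23 at -0.37, Bag2 at -0.29 and Zfp451 at -0.28, against -0.18, -0.03 and 0.00 on the VillinCreERT2 self-self array. This window was chosen after the Prim2 value was seen.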
